A study of Mus musculus with 32 samples.

Results

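The 8 troponin genes measured here were Tnnt3, Tnni2 and Tnnc2 (the fast skeletal forms), Tnnt1, Tnni1 and Tnnc1 (the slow skeletal forms) and Tnnt2 and Tnni3 (the cardiac forms). They were chosen by name, and all 8 were found among the 43035 genes of the deposited tables. The study sequenced RNA from mice that carry an inducible DUX4 gene and from wild-type (WT) mice. DUX4 is a transcription factor of the early embryo, and its return in muscle fibres causes facioscapulohumeral dystrophy. For whole muscle, the group IDUX.2Weeks held 5 libraries with DUX4 and its WT group, WT.2Weeks, held 5; the group IDUX.16Weeks held 4 and WT.16Weeks held 4. Sorted CD31+ endothelial cells came as the group CD31DUX (4 libraries) with the WT group CD31WT (3 libraries). Sorted PDGFRa+ fibro-adipogenic progenitors (FAPs), connective tissue cells of muscle, came as PDGDUX (4 libraries) with the WT group PDGWT (3 libraries). Both genotypes in all 8 groups received chow with doxycycline. The labels do not give the promoter or cell type that drives DUX4, the age or sex of the mice, which muscles were used, when the sorted cells were collected or whether each library came from its own animal, so p-values measure the spread between these libraries only.

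Troponin is the calcium switch of the thin filament. Troponin T ties the complex to tropomyosin, troponin I holds back the contact of myosin with actin, and troponin C binds calcium and releases that block. Fast fibres, slow fibres and heart muscle use different genes for each chain, except that slow fibres and the heart share Tnnc1. Skeletal muscle in development and regeneration also uses Tnnt2 for a time, and Tnni1 is used widely in developing muscle before fibre types separate.

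The genes lie in 3 pairs of a troponin I and a troponin T gene, plus 2 lone troponin C genes. On GRCm38 (mm10), Tnni1 (chromosome 1, 135779434 to 135810989) and Tnnt2 (chromosome 1, 135836354 to 135852260) were 25364 bases apart. Tnni2 (chromosome 7, 142441808 to 142444410) and Tnnt3 (chromosome 7, 142498836 to 142516009) were 54425 bases apart, and Tnnt1 (chromosome 7, 4504570 to 4516382) and Tnni3 (chromosome 7, 4518305 to 4524229) were 1922 bases apart. Tnnc2 (chromosome 2, 164777161 to 164779967) and Tnnc1 (chromosome 14, 31208312 to 31211729) had no member beside them. Tnni2 and Tnnt3 are both fast forms, whereas the other two pairs each join a slow form with a cardiac form.

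Promoter windows of the 250 bases before a RefSeq start site were at hand for 6 of the 8 genes (RefSeq, GRCm38.p6), and not for Tnni2 and Tnnt3. They were searched on both strands for the E-box CANNTG, the M-CAT element CATTCC, the MEF3 element TCAGGT, and the MEF2 and CArG elements. The sequences shown are those of Tnnt2, the member called higher in DUX4 muscle at 2 weeks, of the 3 slow genes, whose levels moved together across libraries, and of Tnnc2, the fast gene with a window. Where RefSeq had 2 start sites (Tnnt2 and Tnni1), the upstream one is shown. All run 5′ to 3′ on the gene's strand, and capitals mark E-boxes and M-CAT elements. Their windows are chr1:135836084-135836333 (plus strand, Tnnt2), chr7:4515976-4516225 (minus strand, Tnnt1), chr1:135799171-135799420 (plus strand, Tnni1), chr14:31208062-31208311 (plus strand, Tnnc1) and chr2:164779735-164779984 (minus strand, Tnnc2).
Tnnt2: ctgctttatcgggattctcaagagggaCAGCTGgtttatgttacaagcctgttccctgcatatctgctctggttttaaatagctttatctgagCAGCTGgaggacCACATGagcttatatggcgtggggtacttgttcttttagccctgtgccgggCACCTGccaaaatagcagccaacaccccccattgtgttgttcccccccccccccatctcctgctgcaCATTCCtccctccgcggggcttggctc
Tnnt1: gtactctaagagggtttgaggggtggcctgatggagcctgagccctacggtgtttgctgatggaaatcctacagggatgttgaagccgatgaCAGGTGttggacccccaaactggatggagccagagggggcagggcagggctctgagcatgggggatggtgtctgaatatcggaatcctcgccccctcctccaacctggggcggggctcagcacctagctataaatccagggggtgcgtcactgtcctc
Tnni1: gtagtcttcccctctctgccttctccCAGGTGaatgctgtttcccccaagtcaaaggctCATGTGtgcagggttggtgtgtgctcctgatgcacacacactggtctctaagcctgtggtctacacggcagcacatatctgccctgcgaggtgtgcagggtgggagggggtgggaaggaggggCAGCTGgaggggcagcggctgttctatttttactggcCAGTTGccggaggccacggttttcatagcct
Tnnc1: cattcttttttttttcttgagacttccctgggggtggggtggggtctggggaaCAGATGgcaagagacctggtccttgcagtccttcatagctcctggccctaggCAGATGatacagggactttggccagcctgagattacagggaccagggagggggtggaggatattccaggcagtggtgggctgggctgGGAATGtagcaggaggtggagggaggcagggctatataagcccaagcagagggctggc
Tnnc2: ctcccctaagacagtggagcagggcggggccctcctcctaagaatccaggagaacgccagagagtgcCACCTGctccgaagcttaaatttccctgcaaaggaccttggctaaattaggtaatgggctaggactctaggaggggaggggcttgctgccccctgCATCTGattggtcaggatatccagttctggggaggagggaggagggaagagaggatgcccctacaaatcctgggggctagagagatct
The Tnnt2 window held 4 E-boxes and 1 M-CAT element, the Tnnc1 window 2 E-boxes and 1 M-CAT element on the opposite strand, the Tnni1 window 4 E-boxes, the Tnnc2 window 2 and the Tnnt1 window 1. No marked element overlapped another, and none of the windows held MEF3, MEF2 or CArG letters. Of all 32851 promoter windows of this length, 66.2% held an E-box, 12.6% M-CAT, 12.3% MEF3, 2.92% MEF2 and 1.47% CArG letters.

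Library totals ran from 6071276 to 20666816 counts. The 2-week libraries fell into 2 sets by Hoxd8, a gene that marks position along the body: replicates 1 to 3 of both genotypes had 51.2 to 73.5 CPM (counts scaled to the library total, corrected by TMM factors) and replicates 4 and 5 of both had 4.49 to 5.56 CPM. Hoxd8 stood at 22.7 to 51.5 CPM at 16 weeks. WT.16Weeks replicate 1 also stood apart, with the satellite-cell marker Cdh15 at 99.1 CPM, against 19 to 24.2 CPM in the other WT libraries of that time. The other 4 satellite-cell markers (Pax7, Myf5, Calcr and Chodl) summed to 6.45 CPM in it, the lowest of those libraries, against 10.8 to 17.6 CPM. Muscle fibre markers (Acta1, Ckm, Mb, Tcap, Mylpf and Myh4) were abundant in every whole-muscle library. Of 6 heart markers, Myl7 was at 0 in every library, and Nppa, Nppb and Mybphl each stayed at or under 0.505 CPM in whole muscle. The other two were present: Myh6 was at 4.7 to 42.1 CPM in IDUX.2Weeks, 5.23 to 90.5 CPM in WT.2Weeks, 149 to 603 CPM in IDUX.16Weeks and 333 to 626 CPM in WT.16Weeks. Sbk2 was at 18.6 to 46.1 CPM in IDUX.2Weeks, 46.2 to 115 CPM in WT.2Weeks, 32.3 to 42.8 CPM in IDUX.16Weeks and 16.5 to 49.6 CPM in WT.16Weeks.

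The fast troponins made up nearly all troponin RNA in whole muscle. Per kilobase of merged exons, Tnnt3 averaged 5640 ± 1240 CPM in IDUX.2Weeks, 9030 ± 181 CPM in WT.2Weeks, 5360 ± 1260 CPM in IDUX.16Weeks and 9930 ± 425 CPM in WT.16Weeks (SD, n = 5, 5, 4 and 4). On this scale Tnnt3 was highest in all 4 groups, followed by Tnnc2 and Tnni2, then by Tnnt1 and Tnnc1, and then by Tnni1, Tnnt2 and Tnni3. Tnnt1 and Tnnc1 lay within 1 SD of each other, and their order differed between groups. At 2 weeks Tnnt3 supplied 99 ± 0.791% of troponin T RNA per kilobase in DUX4 muscle and 99.6 ± 0.368% in WT muscle. At 16 weeks it supplied 92.5 ± 2.82% in DUX4 muscle and 96.8 ± 0.61% in WT muscle, and Tnnt1 supplied 7.44 ± 2.8% in DUX4 muscle and 3.23 ± 0.612% in WT muscle.

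**Figure D1:**
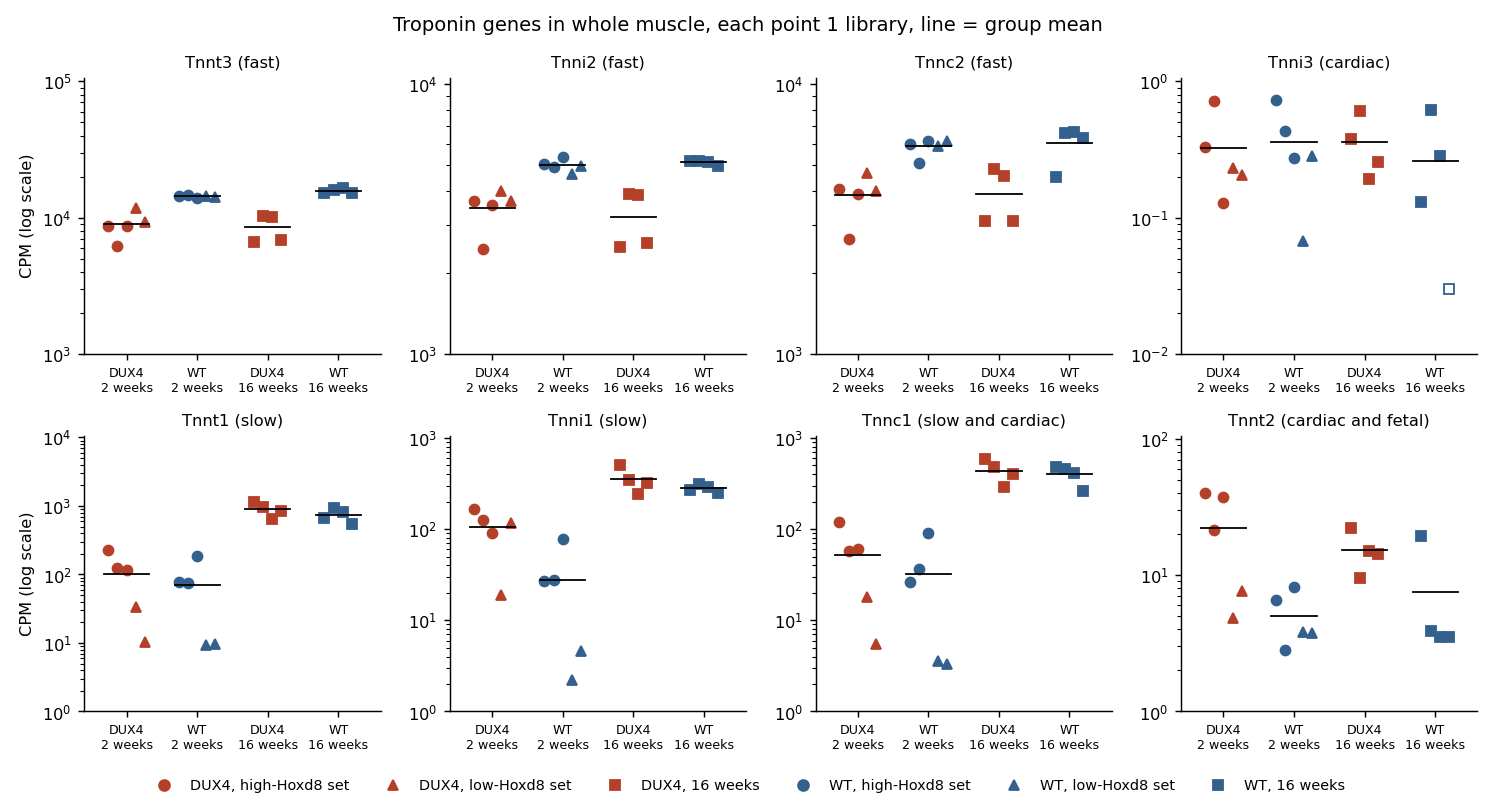
CPM of each troponin gene (log axis) in every whole-muscle library, DUX4 in red and WT in blue, with a line at the group mean; circles and triangles are the high and low Hoxd8 sets of 2-week libraries, squares are 16-week libraries, and the open square is a library at 0. All 5 DUX4 libraries at 2 weeks (6220 to 11700 CPM) lie below all 5 WT libraries (14000 to 14700 CPM) for Tnnt3. Tnnt1 and Tnnc1 separate by library set and time, and Tnni1 separates by time but not fully by set.

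At 2 weeks the 3 fast troponin genes were lower and Tnnt2 was higher in DUX4 muscle than in WT muscle. Of 7 members tested (Tnni3 did not pass the filter on low counts), 3 fell and 1 rose at an adjusted p under 0.05. Over all 15396 genes tested, 17.6% were called in this comparison, 6.47% lower and 11.2% higher. Tnnt3, the fast troponin T, was at 8640, 6220, 8700, 11700 and 9350 CPM in DUX4 libraries, against 14300, 14700, 14000, 14400 and 14100 CPM in WT libraries. No DUX4 library reached the lowest WT library. The log2 difference was -0.68 ± 0.17 (SE, edgeR quasi-likelihood test, adjusted p = 0.00915). Tnni2, the fast troponin I, was at 3700, 2440, 3560, 4030 and 3700 CPM in DUX4 libraries, against 5060, 4920, 5370, 4640 and 4980 CPM in WT libraries. Again the groups did not overlap, at a log2 difference of -0.52 ± 0.15 (adjusted p = 0.0281). Tnnc2, the fast troponin C, was at 4100, 2670, 3920, 4670 and 4000 CPM in DUX4 libraries, against 6020, 5110, 6170, 5910 and 6180 CPM in WT libraries, also without overlap (-0.60 ± 0.17, adjusted p = 0.023). The share of all genes whose groups part in this way was not counted. DUX4 replicate 2 was the lowest library for all 3 genes. The Tnni2 call was lost without IDUX.2Weeks replicate 2 (adjusted p = 0.0708) or replicate 3 (0.0512) or WT.2Weeks replicate 3 (0.0578), and the Tnnc2 call without IDUX.2Weeks replicate 2 (0.0614).

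At 16 weeks the same 3 fast genes were called lower, and no member was called higher. That was 3 of 7 members tested, where 26.6% of all genes were called, 12.5% lower and 14.1% higher. Tnnt3 was at 6670, 10300, 10100 and 6860 CPM in DUX4 libraries, against 15200, 15900, 16600 and 15200 CPM in WT libraries, a log2 difference of -0.89 ± 0.19 (adjusted p = 0.00241). Tnni2 was at 2490, 3910, 3870 and 2580 CPM in DUX4 libraries, against 5200, 5170, 5140 and 4990 CPM in WT libraries (-0.67 ± 0.17, adjusted p = 0.00873). Both genes showed the DUX4 libraries in the same order, replicates 2 and 3 high and replicates 1 and 4 low, and all below WT. As at 2 weeks, the share of all genes whose groups part in this way was not counted. Tnnc2 was at 3110, 4830, 4580 and 3120 CPM in DUX4 libraries, against 4540, 6610, 6630 and 6330 CPM in WT libraries. WT replicate 1 lay within the DUX4 range, and the log2 difference was -0.62 ± 0.19 (adjusted p = 0.024). That call was lost when only the 16-week groups were fitted (adjusted p = 0.0575) and without IDUX.16Weeks replicate 1 or 4 or WT.16Weeks replicate 2 or 3 (0.0586 to 0.0779). The change of the DUX4 effect from 2 to 16 weeks was -0.21 ± 0.25 for Tnnt3 (adjusted p = 0.684), and none of the 7 members was called in this interaction, in which 0.299% of all genes were (46 called, and 2721 at an unadjusted p under 0.05), 0.188% higher and 0.110% lower.

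The size of the fast troponin difference depended on the scaling of libraries. With library totals alone in place of TMM factors, the median log2 difference of all genes was 0.334 at 2 weeks and 0.367 at 16 weeks, against -0.007 and 0.014 with TMM. On totals alone Tnnt3 was still called lower at 2 weeks (-0.37 ± 0.12, adjusted p = 0.0254) and at 16 weeks (-0.55 ± 0.13, adjusted p = 0.00514). Tnni2 and Tnnc2 were not called on that scale at 2 weeks (-0.20 and -0.28, adjusted p = 0.244 and 0.12) or at 16 weeks (-0.34 and -0.28, adjusted p = 0.0804 and 0.169).

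Some other genes of muscle fibres were lower beside the fast troponins, while most slow fibre genes, given below, were not called. The 6 fibre markers summed to 41000 to 82900 CPM (median 52700) in IDUX.2Weeks and 82100 to 102000 CPM (median 88100) in WT.2Weeks, with 3 of the 6 called lower. At 16 weeks the sum was 34700 to 57800 CPM in DUX4 libraries and 74900 to 102000 CPM in WT libraries, again with 3 of the 6 called lower. Ckm, Mylpf and Myh4 are also in the fast fibre list below and Acta1 in the thin filament list, so these calls are not separate from those. Myh4 alone averaged 23600 CPM in IDUX.2Weeks and 40900 CPM in WT.2Weeks, so the sum leans on fast fibre genes. Mb alone went the other way on average at 16 weeks, at 2250 ± 434 CPM in DUX4 libraries and 1560 ± 726 CPM in WT libraries (SD). Tnnt3 equalled 14.1 to 18% of the marker sum in IDUX.2Weeks and 14.4 to 17.2% in WT.2Weeks, and at 16 weeks 17.3 to 20.8% in DUX4 libraries and 15.5 to 20.2% in WT libraries. The genotypes overlapped in this percentage at both times. For Tnnc2 they overlapped at 2 weeks but not at 16 weeks, when it equalled 7.86 to 9.39% in DUX4 libraries and 6.06 to 6.91% in WT libraries. In bulk tissue, fewer fibres and less RNA per fibre cannot be told apart. Summed macrophage markers ran from 53.5 to 126 CPM in IDUX.2Weeks and 24.2 to 70.3 CPM in WT.2Weeks. Of 5 satellite-cell markers, 1 was called higher at 2 weeks: Cdh15, also in the list of developing fibre genes below, was at 43.3 to 68 CPM in IDUX.2Weeks and 17.6 to 24.9 CPM in WT.2Weeks. The other 4 summed to 16.4 to 26.5 CPM in IDUX.2Weeks and 15.3 to 23.9 CPM in WT.2Weeks, which overlap. At 16 weeks 2 of the 5 satellite-cell markers were called higher, where 14.1% of all genes were. The 4 without Cdh15 then summed to 21.7 to 49.4 CPM in IDUX.16Weeks and 6.45 to 17.6 CPM in WT.16Weeks. These did not overlap, but the share of all genes for which this holds was not counted. The part of macrophages and satellite cells in the differences was not tested.

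**Figure D2:**
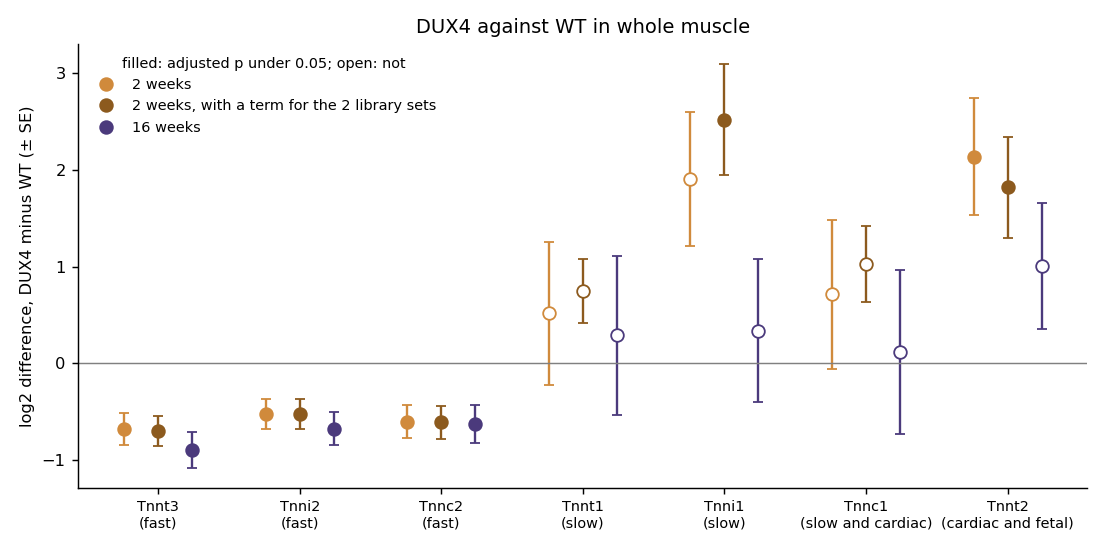
Log2 difference of DUX4 minus WT with its SE for the 7 tested troponin genes in whole muscle at 2 weeks, at 2 weeks with a term for the 2 library sets, and at 16 weeks; filled points had an adjusted p under 0.05. The 3 fast genes lie between -0.52 and -0.89, Tnnt2 lies at 2.14 at 2 weeks, and Tnni1 becomes a call (2.52) once the sets are in the fit.

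Tnnt1 and Tnnc1 differed widely between sets of libraries and between times. Tnnt1, the slow troponin T, was at 224, 125, 116, 33.7 and 10.4 CPM in IDUX.2Weeks, against 77, 74.6, 185, 9.26 and 9.62 CPM in WT.2Weeks. Replicates 4 and 5, the low-Hoxd8 set, were lowest in both genotypes. At 16 weeks Tnnt1 was at 1140, 964, 639 and 852 CPM in DUX4 libraries and 664, 918, 805 and 549 CPM in WT libraries, so that every 16-week library exceeded every 2-week library. Tnnc1, the troponin C of slow fibres and heart, showed the same pattern, at 119, 57.2, 60.9, 17.8 and 5.53 CPM in IDUX.2Weeks, against 26.5, 36.1, 89.9, 3.58 and 3.3 CPM in WT.2Weeks, and at 293 to 586 CPM in DUX4 libraries and 259 to 484 CPM in WT libraries at 16 weeks. The difference between times was not tested. The labels give neither the muscles used nor what sets the library sets apart, so time cannot be told apart from such differences. Neither gene was called between genotypes. The log2 difference was 0.52 ± 0.74 for Tnnt1 (adjusted p = 0.682) and 0.71 ± 0.77 for Tnnc1 (adjusted p = 0.575) at 2 weeks, and 0.29 ± 0.82 and 0.12 ± 0.85 at 16 weeks (adjusted p = 0.831 and 0.94). Single libraries moved the 2-week values: without IDUX.2Weeks replicate 1 they were 0.006 for Tnnt1 and 0.155 for Tnnc1, and without WT.2Weeks replicate 3 they were 1.259 and 1.596, with no call in either case. Leaving out WT.2Weeks replicate 4 gave 0.235 and 0.423, and replicate 5 gave 0.238 and 0.423. With a term for the 2 sets the 2-week difference was 0.75 ± 0.33 for Tnnt1 (adjusted p = 0.125) and 1.03 ± 0.39 for Tnnc1 (adjusted p = 0.0751). A fit of the 16-week groups alone gave 0.27 ± 0.22 for Tnnt1 (adjusted p = 0.412) and 0.10 ± 0.26 for Tnnc1 (adjusted p = 0.817). The SEs were smaller in that fit, which held no 2-week libraries, and the reason was not tested. Without WT.16Weeks replicates 1 and 4 together the small Tnnc1 difference turned to -0.006.

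Tnni1, the slow troponin I, was the slow gene with the widest gap between genotypes at 2 weeks. It was at 168, 127, 91.3, 18.9 and 116 CPM in IDUX.2Weeks, against 27.1, 27.4, 77.9, 2.23 and 4.62 CPM in WT.2Weeks. Within each library set every DUX4 library was above every WT library, at 91.3 to 168 CPM against 27.1 to 77.9 CPM in the high-Hoxd8 set and 18.9 to 116 CPM against 2.23 to 4.62 CPM in the low set. The log2 difference was 1.91 ± 0.69 and missed the threshold (adjusted p = 0.067). With a term for the 2 sets it was 2.52 ± 0.57 and passed (adjusted p = 0.00559). It also passed with DESeq2 (1.89, adjusted p = 0.0331), limma voom with quality weights (2.43, 0.017), totals alone (2.25, 0.0317), without IDUX.2Weeks replicate 4 (0.0258) and without WT.2Weeks replicate 3 (0.0111). It did not pass with relative log expression size factors (adjusted p = 0.0688), a stricter low-count filter (0.0566), no filter (0.161), the 2-week groups alone (0.145), the high set alone (1.53, 0.0839) or the low set alone (4.31, 0.263). At 16 weeks Tnni1 was at 506, 347, 240 and 324 CPM in DUX4 libraries and 271, 315, 286 and 247 CPM in WT libraries, which overlap, at a log2 difference of 0.34 ± 0.74 (adjusted p = 0.775). Fitted alone, the 16-week groups gave 0.32 ± 0.22 (adjusted p = 0.326). The difference between the effects at 16 and 2 weeks, -1.57 ± 1.0, missed the threshold (adjusted p = 0.431).

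Tnnt2, the cardiac and fetal troponin T, was the member called higher at 2 weeks. It was at 40.4, 21.3, 37.2, 4.87 and 7.6 CPM in IDUX.2Weeks, against 6.62, 2.82, 8.17, 3.85 and 3.77 CPM in WT.2Weeks. DUX4 replicates 1 to 3, of the high-Hoxd8 set, were far above all WT libraries, and DUX4 replicates 4 and 5 were within the WT range, although above the WT libraries of their own set. The log2 difference was 2.14 ± 0.60 (adjusted p = 0.0219), and 1.82 ± 0.52 with a term for the sets (adjusted p = 0.0213). In the high set alone it was 2.45 ± 0.41 (adjusted p = 0.00899, 3 against 3 libraries) and in the low set alone 0.69 ± 0.32 (adjusted p = 0.363, 2 against 2), and the difference between these was not tested. The call was lost with no low-count filter (adjusted p = 0.0617) and without any one of IDUX.2Weeks replicates 1 and 3 and WT.2Weeks replicates 2, 4 and 5 (0.0504 to 0.0644), with log2 differences of 1.81 to 2.39 over all libraries left out in turn. At 16 weeks Tnnt2 was at 22.3, 9.61, 15.1 and 14.4 CPM in DUX4 libraries and 19.3, 3.88, 3.51 and 3.53 CPM in WT libraries. A single WT library, replicate 1, lay within the DUX4 range. The log2 difference was 1.01 ± 0.65 (adjusted p = 0.27), and without that library it was 2.08 (adjusted p = 0.0248). Without WT.16Weeks replicates 1 and 4 together it was 2.06 ± 0.76 and was not called (adjusted p = 0.0666). The interaction with time was -1.13 ± 0.87 (adjusted p = 0.516), and -0.08 ± 0.88 without WT.16Weeks replicates 1 and 4 together.

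Tnni3, the heart form of troponin I, stayed at or under 0.735 CPM in every whole-muscle library. It averaged 0.322 ± 0.231 CPM in IDUX.2Weeks and 0.359 ± 0.247 CPM in WT.2Weeks (SD, n = 5 each), and 0.359 ± 0.184 CPM in IDUX.16Weeks and 0.259 ± 0.268 CPM in WT.16Weeks (n = 4 each). It did not pass the filter on low counts and was not tested in whole muscle. Tnni3 shares 86 exonic bases with Dnaaf3 on the same strand, so its few counts are uncertain. Tnnc2 shares 592 exonic bases with Ube2c on the opposite strand, but Ube2c averaged 7.37 CPM in IDUX.2Weeks and 6.34 CPM in WT.2Weeks, far below Tnnc2.

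Ratios within a library cancel the scaling. For each chain the log2 ratio of the slow gene to the fast gene was higher in DUX4 muscle on average, and 8 such ratios were tested by exact two-sided permutation, adjusted over the 8. At 2 weeks Tnni1 to Tnni2 averaged -5.35 ± 1.40 in DUX4 muscle and -8.44 ± 2.02 in WT muscle (SD, n = 5 each), a difference of 3.09 (exact permutation p = 0.0317, adjusted 0.0635). Tnnt2 to Tnnt3 averaged -9.05 ± 1.58 in DUX4 muscle and -11.56 ± 0.65 in WT muscle, a difference of 2.51 (exact p = 0.0238, adjusted 0.0635). Tnnt1 to Tnnt3 differed by 1.42 and Tnnc1 to Tnnc2 by 1.68 (exact p = 0.286 and 0.206, adjusted 0.286 and 0.236). At 16 weeks Tnnt1 to Tnnt3 was -3.99 to -2.55 in DUX4 libraries and -4.79 to -4.11 in WT libraries, with no overlap and a mean difference of 1.21. Tnni1 to Tnni2 was -4.01 to -2.30 in DUX4 libraries and -4.34 to -4.04 in WT libraries, again with no overlap, and a difference of 1.0. Both had an exact p of 0.0286, the smallest that 4 against 4 libraries allow (adjusted 0.0635). Tnnt2 to Tnnt3 differed by 2.32 (exact p = 0.0571, adjusted 0.0914) and Tnnc1 to Tnnc2 by 0.75 (exact p = 0.171, adjusted 0.229). None of the 8 ratios passed after adjustment in this test, which takes no account of the 2 library sets at 2 weeks.

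Within the library sets of the 2-week groups the ratios parted more cleanly. In the high-Hoxd8 set Tnnt1 to Tnnt3 was -6.23 to -5.27 in DUX4 libraries and -7.62 to -6.24 in WT libraries, and Tnnc1 to Tnnc2 was -6.01 to -5.10 in DUX4 libraries and -7.83 to -6.10 in WT libraries. In the low set Tnnt1 to Tnnt3 was -9.82 to -8.44 in DUX4 libraries and -10.60 to -10.51 in WT libraries, and Tnnc1 to Tnnc2 was -9.50 to -8.03 in DUX4 libraries and -10.84 to -10.66 in WT libraries. All 4 ratios were higher in every DUX4 library than in every WT library of the same set, by as little as 0.01 for Tnnt1 to Tnnt3 in the high set. With genotype labels permuted only within the sets, each of the 4 differences at 2 weeks had an exact p of 0.0167, the smallest that these 120 arrangements allow, and an adjusted p of 0.0333 over the 8 ratios. That test was added after the values within sets had been seen. The full separation within sets fixed its p at that smallest value in advance, so it adds nothing to the separation itself. With its 2-week p-values among the 8, the adjusted p of Tnnt1 to Tnnt3 and of Tnni1 to Tnni2 at 16 weeks became 0.0381. Their own exact p did not change, so that value is no further evidence for either ratio.

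**Figure D3:**
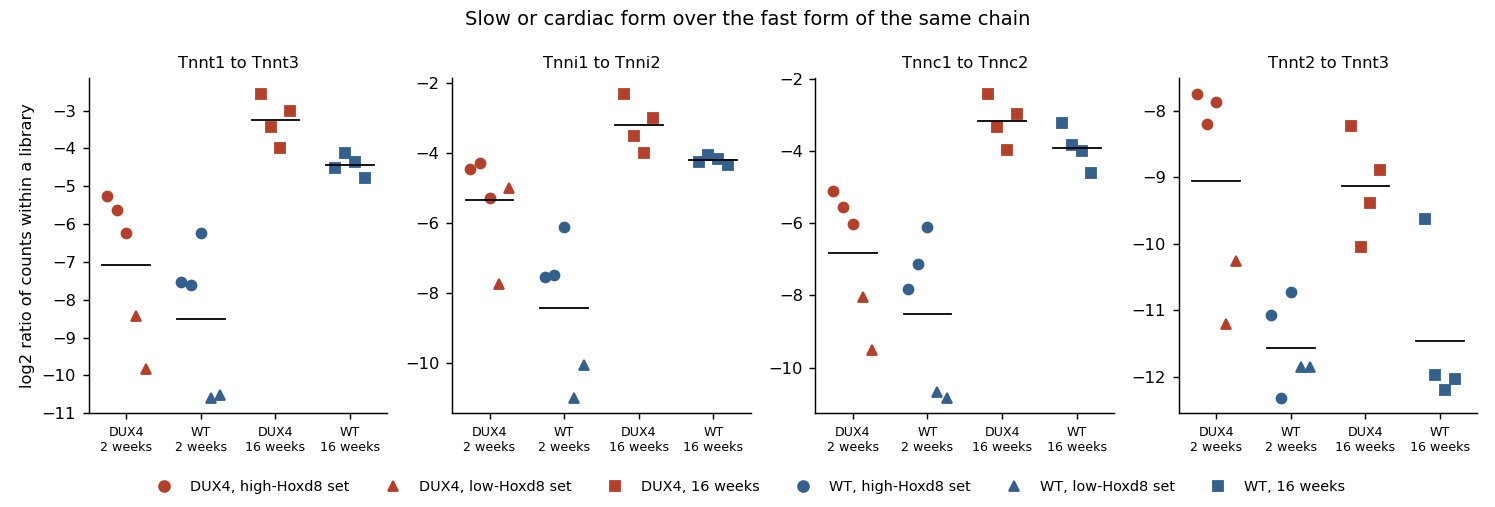
Log2 ratio of counts of the slow or cardiac gene to the fast gene of the same chain in every whole-muscle library, with a line at the group mean; symbols and colours are as in the plot of levels. At 16 weeks the DUX4 libraries lie above all WT libraries for Tnnt1 to Tnnt3 (-3.99 to -2.55 against -4.79 to -4.11) and Tnni1 to Tnni2 (-4.01 to -2.30 against -4.34 to -4.04).

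Among the 18 whole-muscle libraries the members formed groups by fibre type rather than by chain. Tnnt3 followed Tnni2 with a Pearson r of 0.974 on log2 CPM and Tnnc2 with 0.942, and Tnnt1 followed Tnnc1 with 0.996 and Tnni1 with 0.873. These values describe libraries that share genotype, time and set, and are not independent. The neighbours Tnni1 and Tnnt2 had an r of 0.444, and Tnnt2 had -0.742 with Tnnt3. Outside the family, the genes most like Tnnt3 were Atp2a1, the fast calcium pump (r = 0.970), Gatc (0.966), Ubald2 (0.965), Tmem38a, a cation channel of the sarcoplasmic reticulum (0.964), and Rcsd1 (0.962). Those most like Tnnt1 were Myh7, the slow myosin heavy chain (0.986), Tpm3, the slow tropomyosin (0.978), Myl2, a slow light chain (0.978), Atp2a2, the slow calcium pump (0.962), and Lgi1 (0.953). Those most like Tnnt2 were Pmaip1, a p53 target that promotes cell death (0.941), Cstb, a cysteine protease inhibitor (0.940), Ankrd10 (0.940), Timp1, an inhibitor of metalloproteases (0.933), and Psat1, an enzyme of serine synthesis (0.923).

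Genes that work with troponin were read from 5 lists, and the background shares of called genes above apply to each. Of 17 thin filament genes, 6 fell and 2 rose in DUX4 muscle at 2 weeks (median log2 -0.16, against -0.007 over all genes). Tmod4, a cap of the slow-growing filament end, fell to 172 ± 37.1 CPM in DUX4 muscle, against 312 ± 26 CPM in WT muscle (adjusted p = 0.00151). Klhl41, which stabilises thin filament proteins, rose (0.70 ± 0.12, adjusted p = 0.000475). Tmod1, another cap, fell by 0.61 on the log2 scale (adjusted p = 0.00321). Acta1, the skeletal actin, averaged 19000 ± 4600 CPM in DUX4 muscle and 28700 ± 2160 CPM in WT muscle at 2 weeks (-0.59 ± 0.17, adjusted p = 0.0204). Tpm2, the beta tropomyosin that troponin T binds, fell (-0.69 ± 0.15, adjusted p = 0.00458), while Tpm1 (-0.76 ± 0.29, adjusted p = 0.08) and Tpm3 (0.29 ± 0.44, adjusted p = 0.704) missed the threshold. At 16 weeks 5 of the 17 fell and 1 rose (median -0.28, against 0.014 over all genes), led by Neb, the filament's length ruler (-1.02 ± 0.22, adjusted p = 0.00268), Tmod4 (-0.81 ± 0.18, adjusted p = 0.00381) and Tmod1 (-0.59 ± 0.14, adjusted p = 0.00583). Acta1, Tpm1, Tpm2 and Tpm3 were not called at 16 weeks (-0.46, -0.83, -0.004 and 0.04; adjusted p = 0.076, 0.0671, 0.99 and 0.969). Without IDUX.16Weeks replicate 3 the number lower at 16 weeks was 3. On totals alone the thin filament medians were 0.12 and 0.07, with 2 genes lower at each time.

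Of 13 other fast fibre genes, 8 fell and none rose at 2 weeks (median -0.87), and 6 fell and none rose at 16 weeks (median -0.62). The count at 2 weeks was 4 or 5 without IDUX.2Weeks replicate 1, 2, 3 or 5 or WT.2Weeks replicate 1 or 5, and 4 to 9 over all libraries left out in turn. Actn3, the fast Z-disc actinin, fell by 1.44 at 2 weeks (adjusted p = 0.00312) and by 2.01 at 16 weeks (adjusted p = 0.000504) on the log2 scale. Atp2a1 fell by 0.89 (adjusted p = 0.00636) and 1.27 (adjusted p = 0.00088), Pygm, the muscle glycogen phosphorylase, by 1.03 at 2 weeks (adjusted p = 0.00569), and Myh4, the fastest myosin heavy chain, by 0.80 (adjusted p = 0.0477) and 1.71 (adjusted p = 0.00076). Of 12 slow fibre genes, 1 rose and 1 fell at 2 weeks (median 0.34), and none was called at 16 weeks (median -0.02). The number of slow genes called at 2 weeks was close to the background of 17.6% over all genes. Casq2, the slow calcium store protein, rose (0.80 ± 0.27, adjusted p = 0.0499) and Mybpc1, the slow myosin-binding protein C, fell (-0.61 ± 0.17, adjusted p = 0.0197). Myh7 averaged 211 ± 163 CPM in IDUX.2Weeks and 191 ± 205 CPM in WT.2Weeks, and 2290 ± 611 CPM in IDUX.16Weeks and 2600 ± 641 CPM in WT.16Weeks (adjusted p = 0.936 and 0.919).

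Of 14 genes of developing or regenerating fibres, 8 rose and none fell at each time (median 1.79 at 2 weeks and 2.14 at 16 weeks). This list was written knowing that such genes rose in these libraries. The count at 2 weeks was 4 or 5 without IDUX.2Weeks replicate 1, 2 or 3 or WT.2Weeks replicate 2, 3, 4 or 5, and 4 to 11 over all libraries left out. At 16 weeks it was 4 or 5 without IDUX.16Weeks replicate 1 or WT.16Weeks replicate 2 or 3, and 4 to 12 over all. At 2 weeks Ncam1, a neural adhesion molecule (1.40 ± 0.26, adjusted p = 0.00139), Sln, the calcium pump regulator sarcolipin (4.80 ± 0.995, adjusted p = 0.00335), and Myh8, the perinatal myosin (2.50 ± 0.54, adjusted p = 0.0045), led. At 16 weeks Ncam1 (adjusted p = 0.00256), Myl4, the embryonic and atrial light chain (3.07 ± 0.69, adjusted p = 0.00416), and Sln (adjusted p = 0.00567) led. Myh3, the embryonic myosin, averaged 141 ± 82.3 CPM in IDUX.2Weeks and 30.8 ± 37.5 CPM in WT.2Weeks (adjusted p = 0.0452), and 168 ± 134 CPM in IDUX.16Weeks and 29.5 ± 19 CPM in WT.16Weeks (adjusted p = 0.0318).

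Of 18 transcription regulators known from work on troponin or fibre-type genes, 1 rose and 2 fell at 2 weeks (median -0.01), and 1 rose and 4 fell at 16 weeks (median -0.15). Over all genes 17.6% were called at 2 weeks and 26.6% at 16 weeks, so the number called was close to the background at both times. Eya1, a coactivator of SIX-family factors, rose to 55.4 ± 16.1 CPM in IDUX.2Weeks, against 25 ± 0.909 CPM in WT.2Weeks (1.15 ± 0.20, adjusted p = 0.000689). Tbx15, a T-box factor of glycolytic fibres, fell at 2 weeks (-0.71 ± 0.19, adjusted p = 0.0135) and 16 weeks (-0.83 ± 0.21, adjusted p = 0.00775), and Six4 fell at 2 weeks (-0.53 ± 0.16, adjusted p = 0.0282). At 16 weeks Mef2d (-0.58 ± 0.11, adjusted p = 0.00135) and Nfatc1, which answers calcineurin (-0.60 ± 0.14, adjusted p = 0.00537), fell. The number lower at 2 weeks was 1 without IDUX.2Weeks replicate 1 or 2 or WT.2Weeks replicate 1 or 4, and at 16 weeks it was 7 without WT.16Weeks replicate 1. On totals alone 6 of the 18 rose and 1 fell at 2 weeks, and 3 rose and 1 fell at 16 weeks.

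**Figure D4:**
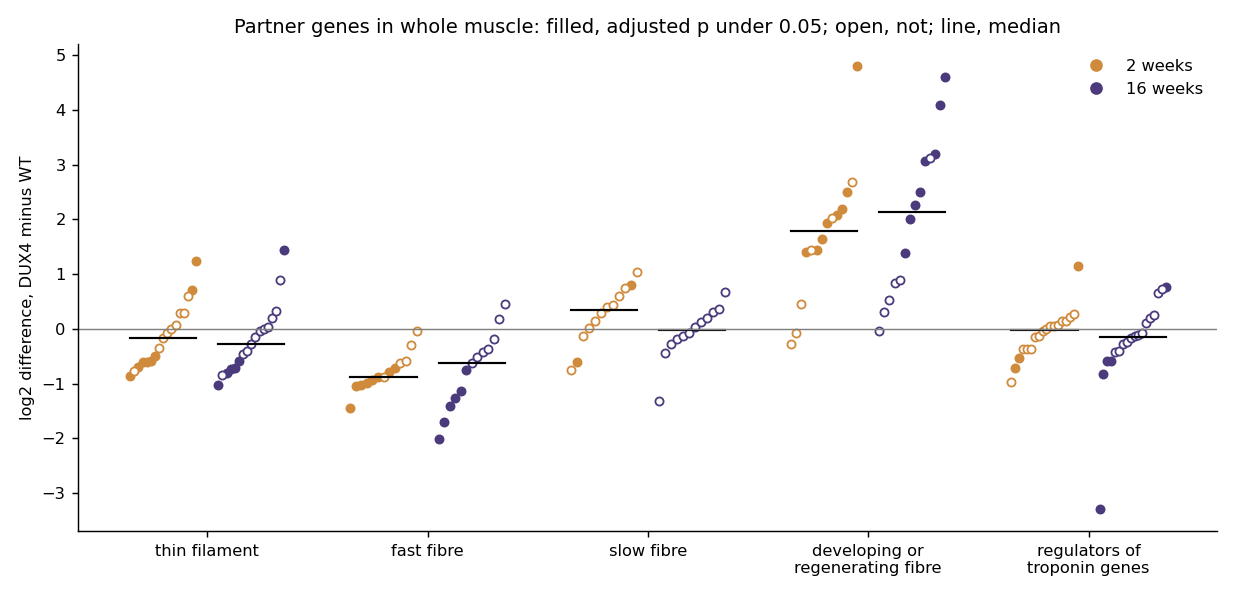
Log2 difference of DUX4 minus WT in whole muscle for each gene of the 5 lists, sorted within list, at 2 weeks (orange) and 16 weeks (purple); filled points had an adjusted p under 0.05 and the line is the list's median. Fast fibre genes lie mostly below 0 (medians -0.87 and -0.62) and developing fibre genes mostly above (medians 1.79 and 2.14).

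Sorted cells held far less troponin RNA than whole muscle. In endothelial cells Tnnt3 was at 123, 92.2, 42.8 and 60.1 CPM in CD31DUX, against 37.5, 12.4 and 34.1 CPM in CD31WT. Tnnc2 was at 92.5, 71.2, 36.4 and 48.5 CPM in CD31DUX, against 26, 14.9 and 23 CPM in CD31WT, and Tnni2 at 58.9, 43.3, 24 and 28.7 CPM in CD31DUX, against 22.6, 4.14 and 16.4 CPM in CD31WT. The DUX4 libraries were above all WT libraries for each fast gene, but the share of all genes for which this holds was not counted. Tnnc2 alone was called (1.54 ± 0.37, adjusted p = 0.0224), 1 of 8 members tested, where 5.07% of all 17008 genes were called, 3.72% higher and 1.35% lower. Tnnt3 (1.50 ± 0.43, adjusted p = 0.0621) and Tnni2 (1.43 ± 0.53, adjusted p = 0.151) missed the threshold, and the Tnnc2 call was lost without CD31DUX replicate 1 or 2 or CD31WT replicate 2 or 3 (adjusted p up to 0.075). DESeq2 also called Tnnt3 (adjusted p = 0.00615) and limma voom also called Tnni2 (adjusted p = 0.0476).

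Fibre markers moved with these genes. The 6 of them summed to 278 to 680 CPM in CD31DUX and 89 to 188 CPM in CD31WT, with none of the 6 called. Tnnt3 equalled 15.4 to 18% of that sum in CD31DUX and 14 to 20.1% in CD31WT, and Tnnc2 12.7 to 13.6% in CD31DUX and 12.3 to 16.8% in CD31WT. Summed endothelial markers ran from 2350 to 2790 CPM in CD31DUX and 3170 to 3900 CPM in CD31WT, and summed FAP markers from 8050 to 9790 CPM in CD31DUX and 2410 to 3900 CPM in CD31WT. Whether fibre RNA among the sorted cells set the troponin levels was not tested.

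**Figure D5:**
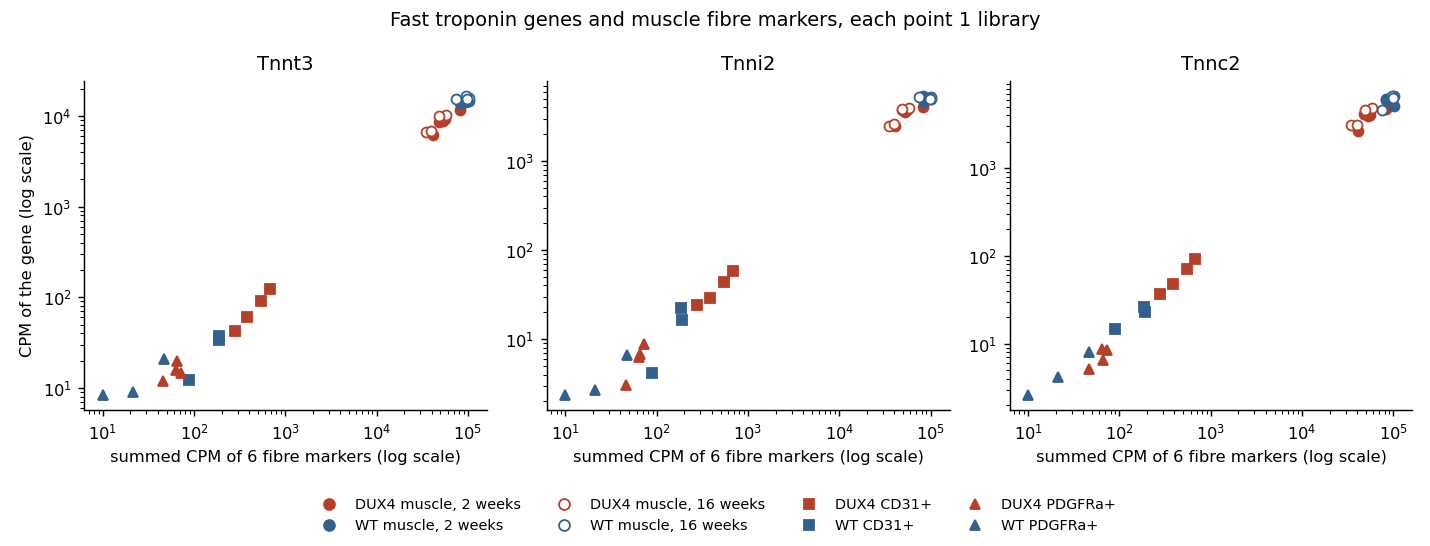
CPM of the 3 fast troponin genes against the summed CPM of 6 muscle fibre markers, both on log axes, in all 32 libraries; red is DUX4, blue is WT, circles are whole muscle (open at 16 weeks), squares CD31+ cells and triangles PDGFRa+ cells. Sorted-cell libraries (9.95 to 680 CPM of markers) and whole-muscle libraries (34700 to 102000 CPM) both show more troponin RNA where marker RNA is higher.

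Tnnt2 in endothelial cells was at 0, 1.95, 3.22 and 3 CPM in CD31DUX, against 0.0519, 0.28 and 0 CPM in CD31WT, from 173 and 6 counts in all. Of the DUX4 libraries, 3 were above all WT libraries and the other was at 0, as was 1 WT library, and the log2 difference of 4.12 ± 1.72 was not called (adjusted p = 0.212). Tnnt2 passed the low-count filter for sorted cells only through those 3 DUX4 libraries, so this difference cannot serve as a fair test of it. The slow genes were low and overlapped, with Tnnt1 at 2.03 to 5.49 CPM in CD31DUX and 1.12 to 5.55 CPM in CD31WT, and Tnni1 and Tnnc1 at or under 3.01 CPM. Tnni3 averaged 1.06 ± 0.546 CPM in CD31DUX and 1.32 ± 0.7 CPM in CD31WT (SD, n = 4 and 3). Of the partner lists, 3 of 13 fast fibre genes (Myl1, Eno3 and Actn3) and 3 of 10 tested genes of developing fibres (Sln, Actc1 and Myog) rose, names chosen after their values were seen. Myog averaged 11.1 CPM in CD31DUX, 0.0373 CPM in CD31WT, 0.386 CPM in PDGDUX and 0 in PDGWT. Actc1 averaged 9.82, 0.0746, 1.09 and 0.159 CPM in these groups. Both passed the low-count filter mainly through CD31DUX, so their calls cannot serve as a fair test either. In the developing list, with a median of 1.87, Myod1 (-1.35) and Ncam1 (-0.78) lay lower and were not called. In the other lists 1 of 17 thin filament genes rose, which was again Actc1, a member of both lists. Besides these, 1 of 11 tested slow fibre genes and 2 of 18 regulators rose. No gene of any list was called lower.

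In FAPs none of the 8 members was called, while 3.0% of all genes were, 1.23% higher and 1.77% lower (edgeR, 510 called and 2517 at an unadjusted p under 0.05; DESeq2 called 1038). Tnnt3 was at 19.9, 15.7, 11.9 and 14.8 CPM in PDGDUX, against 8.35, 9.07 and 20.7 CPM in PDGWT, which overlap (0.29 ± 0.43, adjusted p = 0.834). Tnnc2 was at 5.13 to 8.66 CPM in PDGDUX and 2.6 to 8.08 CPM in PDGWT (0.53 ± 0.38, adjusted p = 0.588), and Tnni2 at 3.04 to 8.74 CPM in PDGDUX and 2.35 to 6.71 CPM in PDGWT (0.66 ± 0.54, adjusted p = 0.651). Tnnt1 was at 0 to 1.23 CPM in PDGDUX and 1.42 to 2.97 CPM in PDGWT, from 23 and 98 counts. Tnnt2 was at 0 in 3 of the 4 PDGDUX libraries and 2 of the 3 PDGWT libraries. The DUX4 effect in FAPs minus that in endothelial cells was -1.21 ± 0.60 for Tnnt3 (adjusted p = 0.396), -0.77 ± 0.74 for Tnni2 (0.743) and -1.01 ± 0.52 for Tnnc2 (0.421), and no member was called where 2.25% of all genes were, 0.553% higher and 1.70% lower (edgeR, 383 called and 2362 at an unadjusted p under 0.05; DESeq2 called 824). In FAPs the share of the fibre marker sum did not overlap between genotypes for any fast gene. Tnnt3 equalled 20.3 to 30.2% in PDGDUX and 42.7 to 83.9% in PDGWT. Tnni2 equalled 6.57 to 12% and 12.7 to 23.6% in these groups, and Tnnc2 9.93 to 13.6% and 17.3 to 26.1%. The sum itself was low, at 46.2 to 72.9 CPM in PDGDUX and 9.95 to 46.8 CPM in PDGWT, so these percentages rest on few counts. The share of all genes that part in this way was not counted, and the difference was not tested.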

How the data were processed

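Per the labels' protocols, whole-muscle libraries were made with KAPA mRNA HyperPrep, and sorted-cell libraries from FACS-sorted hind limb cells (NEBNext low-input cDNA, Nextera XT), both read as 50-base pairs. The authors deposited estimated counts per Ensembl gene, not scaled to depth; Salmon 0.6.0, CASAVA 1.8 and mm10 are named, per the submitters' processing notes. Which annotation release was used, how transcripts were summed and whether strand was used is not given in the sources used here. Symbols, positions and lengths came from GENCODE vM21.

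The estimated counts were rounded and tested with edgeR 4.0.16 (R 4.3.3): filterByExpr with a minimum of 10 counts, TMM factors, robust quasi-likelihood tests with Benjamini-Hochberg adjustment over all genes, called at an adjusted p under 0.05. Whole-muscle (18) and sorted-cell (14) libraries were fitted separately, with 1 mean per group. An SE is the log2 difference divided by the square root of F. CPM are TMM-scaled. Ratios used counts plus 0.5. Library totals of 6071276 to 20666816 counts bound the precision; no 2 libraries were identical. Alternatives were DESeq2 1.42.0, limma 3.58.1 voom with quality weights, other size factors, filters of 0 and 50 counts, fewer groups, a term for library sets, each set alone, and each library left out; scaling by totals in the tests and permuting ratios within library sets were added after seeing the data. On simulated counts the edgeR and voom fits recovered the known changes within the limits set, and DESeq2 made more false calls than its threshold allows. The members and the lists were chosen with earlier results of these data known. Named genes were all members, the 5 genes of highest Pearson r with Tnnt3, Tnnt1 and Tnnt2, up to 3 called genes of smallest p per list and whole-muscle comparison, and Acta1, Tpm1, Tpm2, Tpm3, Myh7, Myh4 and Myh3. The human DUX4 transgene was not analysed here. Replicates were numbered in accession order.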

Additional observations from a re-analysis of the deposited data

Results flagged for a closer look

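A library far from the rest of its group was found in 5 of 48 sets of values (a gene in a group of 4 or 5 libraries); chance gives about 1 in 20. Tnnt2 stood at 19.3 CPM in WT.16Weeks replicate 1, against 3.51 to 3.88 CPM in the other 3 libraries, and Tnnc2 at 4540 CPM in the same library, against 6330 to 6630 CPM. In that library Cdh15 was at 99.1 CPM, and the other 4 satellite-cell markers were the lowest of its group in sum (6.45 CPM). Tnnc2 was at 5110 CPM in WT.2Weeks replicate 2, against 5910 to 6180 CPM in the other 4. Tnnt2 was at 0.214 CPM in PDGDUX replicate 2, against 0 in the other 3, and Tnni3 at 1.87 CPM in CD31DUX replicate 1, against 0.697 to 0.896 CPM in the other 3; both are levels of few counts.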

How the results depend on the processing

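No paired analysis was possible because replicate numbers were given in accession order and pair nothing. The number of troponin genes higher at 2 weeks (1) was 2 with DESeq2, limma voom, totals alone or a term for library sets, and 0 with no low-count filter or in the low-Hoxd8 set alone; it was 0 to 2 with each library left out. The number lower at 2 weeks (3) was 1 on totals alone, 0 in the low-Hoxd8 set alone (2 against 2 libraries), and 1 to 3 with each library left out. At 16 weeks the number higher (0) was 1 with limma voom and 0 to 1 with each library left out, and the number lower (3) was 1 on totals alone and 2 to 3 with each library left out. In endothelial cells the number higher (1) was 2 with DESeq2 or limma voom and 0 to 2 with each library left out. The Tnnc1 difference at 16 weeks (0.12, not called) reversed to -0.006 without WT.16Weeks replicates 1 and 4 together, and ran from -0.059 to 0.266 with each library left out. Apart from totals alone, where the scaling itself moves all genes, and the smaller sets, the cause was not tested. All 8 ratios kept their sign, and none passed, with 5 counts added or any library left out. Permuting labels within library sets was added after seeing the data, and its 2-week outcome was fixed by the separation already seen. With it 6 of the 8 had an adjusted p under 0.05, which adds nothing to that separation. The differences were the same: 1.42 (Tnnt1 to Tnnt3), 3.09 (Tnni1 to Tnni2), 1.68 (Tnnc1 to Tnnc2) and 2.51 (Tnnt2 to Tnnt3) at 2 weeks, and, through the joint adjustment only, 1.21 (Tnnt1 to Tnnt3) and 1.0 (Tnni1 to Tnni2) at 16 weeks.

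Over all genes, calls at 2 weeks (2717) were 4328 with limma voom, 4686 on totals alone (4344 higher and 342 lower, against 1721 and 996) and 16 in the low set alone. At 16 weeks totals alone gave 4162 higher and 472 lower, against 2169 and 1928. Interaction calls between times (46) were 466 with DESeq2, 265 with limma voom, 137 with a set term, 22 on totals and 19 without a filter, and 8 to 57 with each library left out (lowest without IDUX.16Weeks replicate 3). DESeq2 gave 1460 in endothelial cells (863), 1038 in FAPs (510) and 824 for their interaction (383). Lengths of the longest transcript also gave Tnnt3 as the highest, followed by Tnnc2 and Tnni2, in the 4 whole-muscle groups. Depth limits Tnni3 everywhere and all but the fast genes in sorted cells.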
